A study of Mus musculus with 22 samples.

Results

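The subcortical maternal complex genes are 8 of the 55335 genes in the expression table of this mouse study, and they were chosen by symbol: Nlrp5, Ooep, Tle6 and Khdc3, which encode the core of the complex, Padi6, which encodes a protein of the same region of the egg, and the reported partners Nlrp2, Nlrp4f and Zbed3. All 8 symbols occurred once in the table. RNA-seq was performed on embryos of B6D2F1 females mated with B6D2F1 males. The embryos received H2A.Z siRNAs as zygotes (H2A.Z KD, about 10 pL at 20 μM) or served as controls. They were collected as 2-cell embryos, as morulae or as blastocysts, for which the study's methods give 44, 78 and 94 h after hCG injection. Each library came from 15 embryos and was made by Smart-seq2, a protocol that amplifies poly(A) RNA from a few cells. There were 4 control and 3 KD libraries of 2-cell embryos, 4 control and 3 KD libraries of morulae, and 4 control and 4 KD libraries of blastocysts. What the control zygotes of these libraries received is not stated (for qPCR the methods name noninjected control embryos), nor is it stated whether the pools came from separate cultures, so the p-values measure only the spread between these libraries, which may be technical. Protein stored in the egg was not measured.

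The subcortical maternal complex is a protein assembly under the membrane of the mammalian egg that persists in cleaving embryos. Its proteins are made in the growing oocyte, and females lacking Nlrp5, Ooep or Tle6 produce eggs that can be fertilized but whose embryos stop early in cleavage. The genes are textbook examples of maternal-effect genes, whose stored transcripts are cleared around zygotic genome activation (ZGA). H2A.Z is a histone variant that replaces H2A in nucleosomes around promoters, and the study asked how its loss alters transcription in the embryo.

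H2afz, which encodes H2A.Z and was the target of the siRNAs, was present at 905 to 1244 FPKM (fragments scaled to transcript length and library total) in control 2-cell embryos and at 112 to 415 FPKM after KD. The ranges were 1158 to 1511 and 25.7 to 30.3 FPKM in morulae, and 1945 to 2656 and 53.2 to 67.2 FPKM in blastocysts. The 2 treatments did not overlap at any stage. With limma on log2(scaled FPKM + 1), the fall passed the test in morulae (log2 fold change −5.41, adjusted p = 9.71e-08) and in blastocysts (−5.19, adjusted p = 3.63e-08), but not at the 2-cell stage (−2.53, adjusted p = 0.543), where the KD libraries spread widely. Total FPKM ran from 423915 to 722576 per library, and the read depth is unknown from FPKM, so no counting interval is given.

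The 8 genes lie on 5 chromosomes of mm10, in the GENCODE annotation of GRCm38, and all are protein-coding. Nlrp5 (chr7:23385889-23441922, plus strand) and Nlrp2 (chr7:5298547-5351035, minus strand) share chromosome 7. Khdc3 (chr9:73101836-73104438, plus strand) and Ooep (chr9:78376109-78378725, minus strand) share chromosome 9. Nlrp4f (chr13:65177111-65205977, minus strand) and Zbed3 (chr13:95323612-95337841, plus strand) share chromosome 13, while Padi6 is at chr4:140727355-140742643 and Tle6 at chr10:81590904-81601073, both on the minus strand. Khdc3 and Ooep are compact genes with 2050 and 2138 exonic bases, against 4847 for Nlrp5.

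Promoter windows are shown for 3 genes, because Ooep and Padi6 were the members whose KD difference passed the test in blastocysts and Khdc3 was the one member that rose from the 2-cell stage to the morula. Each window runs from 250 bases before the start annotated in RefSeq on GRCm38.p6 to 50 bases after it. It is written 5′ to 3′ on the strand of the gene. For Khdc3 and Ooep the RefSeq start lies inside the GENCODE gene given above, while for Padi6 the 2 starts coincide. The whole Khdc3 window lies inside the GENCODE gene, so it may not hold the promoter of the longer gene model. Capitals mark E-boxes (CANNTG) and the element TAATTG on either strand (CAATTA when read on the other strand), the sequence class bound by the oocyte factors FIGLA and NOBOX, respectively. The Ooep window is chr9:78378539-78378838 (minus strand), the Padi6 window chr4:140742594-140742893 (minus strand) and the Khdc3 window chr9:73102148-73102447 (plus strand).
Ooep: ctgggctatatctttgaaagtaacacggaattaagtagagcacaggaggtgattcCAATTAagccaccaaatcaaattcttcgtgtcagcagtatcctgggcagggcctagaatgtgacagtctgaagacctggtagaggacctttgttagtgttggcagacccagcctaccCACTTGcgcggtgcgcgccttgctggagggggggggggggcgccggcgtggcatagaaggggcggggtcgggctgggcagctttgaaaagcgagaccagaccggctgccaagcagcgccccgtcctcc
Padi6: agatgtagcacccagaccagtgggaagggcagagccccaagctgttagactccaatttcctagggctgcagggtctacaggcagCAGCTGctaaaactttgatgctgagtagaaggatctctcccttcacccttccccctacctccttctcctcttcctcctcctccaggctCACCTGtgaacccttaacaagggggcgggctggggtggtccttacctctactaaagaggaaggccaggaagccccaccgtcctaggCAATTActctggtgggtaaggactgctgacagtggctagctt
Khdc3: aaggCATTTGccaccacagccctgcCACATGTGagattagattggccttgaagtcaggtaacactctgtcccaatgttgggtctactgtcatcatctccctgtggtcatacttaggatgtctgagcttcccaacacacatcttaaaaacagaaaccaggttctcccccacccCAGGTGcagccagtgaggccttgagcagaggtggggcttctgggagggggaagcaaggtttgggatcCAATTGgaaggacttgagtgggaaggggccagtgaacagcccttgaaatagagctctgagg
The Ooep window held 15 CpG dinucleotides at 58.3% GC, the Padi6 window 2 at 56.0% and the Khdc3 window 0 at 52.7%, where the median over 32851 windows was 7 CpGs and 52.7% GC. All 8 members had at least 1 window, 12 in all, and 7 members had an E-box in a window, which 72.3% of all windows hold. TAATTG was found in 2 of the 12 windows, those of Ooep and Padi6, and in 8.0% of all windows. It began 195 bases before the RefSeq start of Ooep (position -195) and at position 9 of Padi6, inside the transcribed part. The Khdc3 window held 5 E-boxes, of which 2 overlap, against 1 in the window of Ooep and 2 in that of Padi6.

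The 8 genes differed widely in level, and most, though not all, were lower after the 2-cell stage. In control 2-cell embryos, the mean level ran from 4.02 FPKM for Nlrp2 to 897 FPKM for Zbed3. Among the 6 groups, Nlrp5, Tle6, Padi6, Nlrp2, Nlrp4f and Zbed3 had their highest mean in control 2-cell embryos, Ooep in control blastocysts and Khdc3 in control morulae, as the plot of levels by library shows.

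**Figure D1:**
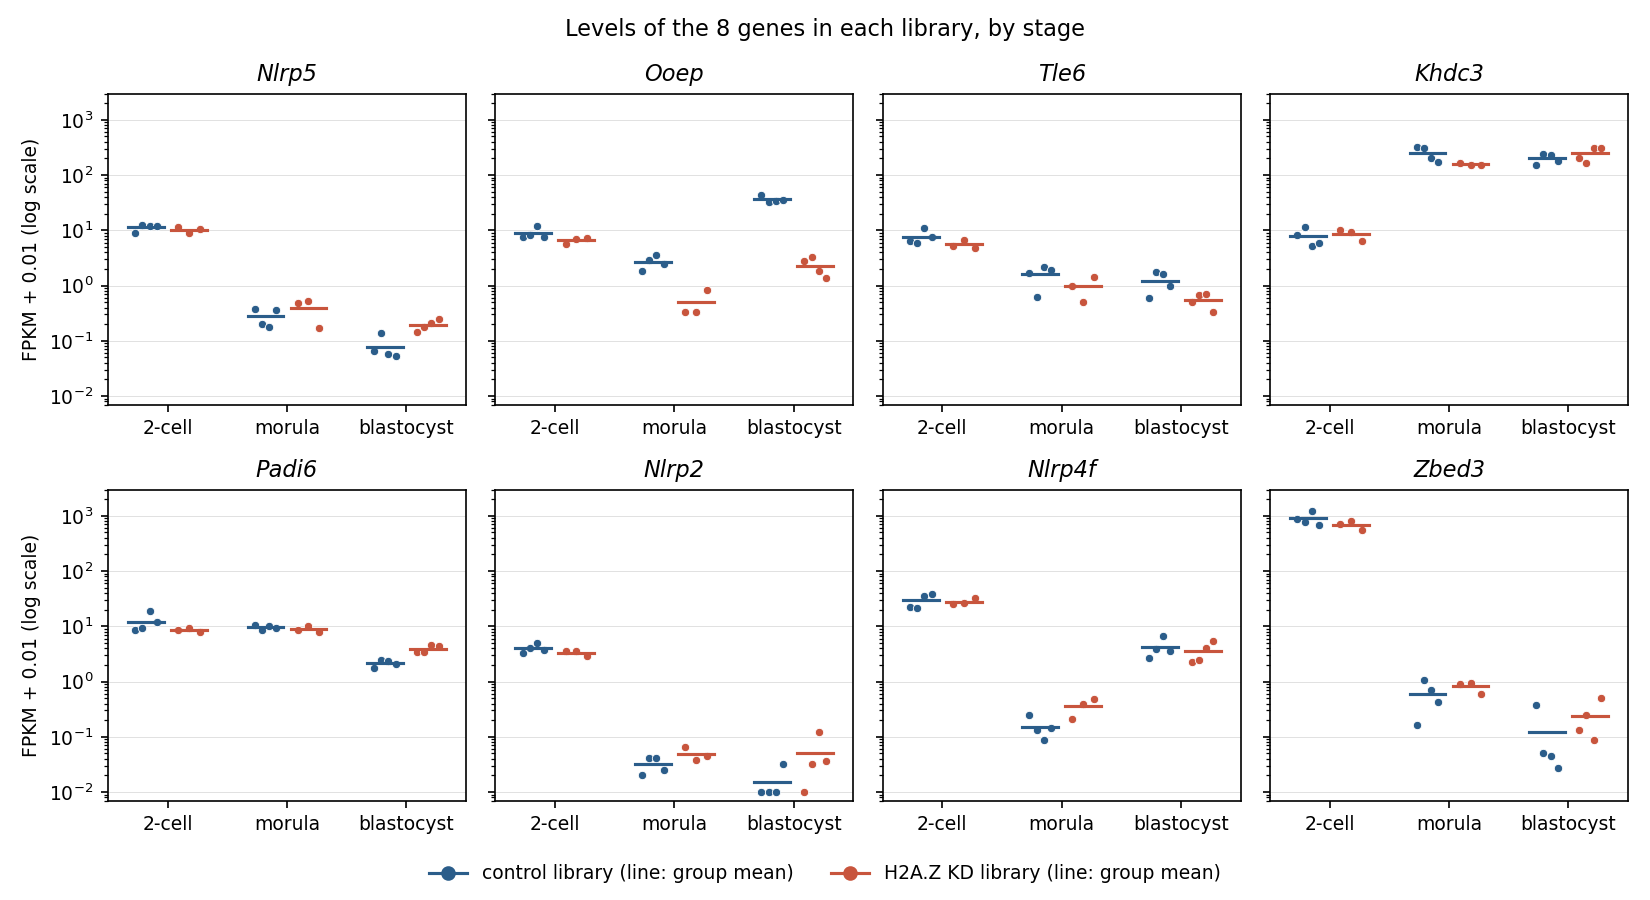
FPKM of each gene in each of the 22 libraries, on a log axis after adding 0.01, by stage, with control libraries in blue, H2A.Z KD libraries in red and a line at each group mean. Zbed3 drops from over 500 FPKM to near or below 1, Khdc3 climbs from under 12 to over 150 FPKM, and Ooep separates by treatment in morulae and blastocysts.

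Among the core genes, Nlrp5 encodes MATER, an NLR protein on which the complex is built. Its levels in control 2-cell embryos were 8.89, 12.3, 12.1 and 12.1 FPKM (11.3 ± 1.64, SD, n = 4), and in KD 2-cell embryos 11.3, 9.03 and 10.4 FPKM (10.2 ± 1.13, SD, n = 3). The groups overlapped at the 2-cell stage. In morulae, Nlrp5 lay between 0.171 and 0.360 FPKM in controls and between 0.162 and 0.513 FPKM in KD libraries. Control blastocysts had 0.0552, 0.130, 0.0484 and 0.0430 FPKM and KD blastocysts 0.133, 0.165, 0.197 and 0.241 FPKM, so that every KD library was above every control library, at levels under the filter of the test (14.6% of the genes tested in blastocysts were higher in every KD library). The mean of controls was 42.2-fold lower in morulae than in 2-cell embryos (log2 fold change −3.34, SE 0.12, adjusted p = 1.35e-16). Nlrp5 passed the filter of this fit through the 2-cell libraries alone and so had to fall, and the p-value is a description. Stretches of 50 bases or more shared with 3 other genes cover 21.9% of its longest transcript, the longest being 171 bases in common with Nlrp5-ps, and reads from them could be assigned to either.

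Ooep encodes a small KH-domain-like protein also known as FLOPED and was the member that differed most between control and KD embryos. In control 2-cell embryos, Ooep stood at 7.48, 8.22, 12.0 and 7.62 FPKM, and after KD at 5.63, 7.0 and 7.12 FPKM. Although these groups did not overlap, the difference did not pass the test (log2 fold change −0.30, SE 0.19, 95% CI −0.71 to 0.12, adjusted p = 0.839), and 4.13% of all genes tested at that stage were lower in every KD library than in every control library. In morulae, the control libraries held 1.85, 2.85, 3.58 and 2.45 FPKM and the KD libraries 0.325, 0.330 and 0.810 FPKM. All 3 KD libraries were below 1 FPKM and all 4 control libraries were above it, a mean difference of 5.49-fold, and 22.9% of the genes tested in morulae were likewise lower in every KD library. In blastocysts, the control libraries held 44.0, 32.1, 34.6 and 35.3 FPKM (36.5 ± 5.17, SD, n = 4), the highest levels of Ooep in any group, and the KD libraries 2.82, 3.23, 1.79 and 1.34 FPKM (2.30 ± 0.88, SD, n = 4). The KD blastocysts fell within or just below the range of control morulae, and their mean was 15.9-fold below that of control blastocysts. In blastocysts 20.0% of genes tested were lower in every KD library.

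Over development, Ooep thus had 2 high phases in control embryos. It fell from the 2-cell stage to the morula (log2 fold change −1.55, SE 0.21, adjusted p = 6.95e-07) and rose 13.6-fold from the morula to the blastocyst (3.33, SE 0.21, adjusted p = 3.01e-11). In KD embryos it fell by 2.48 on the log2 scale (SE 0.25, adjusted p = 5.28e-09) and rose 4.70-fold from a lower start (1.02, SE 0.23, adjusted p = 0.00173). By rank among all 55335 genes of a library, Ooep was 1840th to 2400th in control blastocysts and 7332nd to 10164th in KD blastocysts. The order of group means was control blastocyst, control 2-cell, KD 2-cell, control morula, KD blastocyst and KD morula, and only control morulae and KD blastocysts overlapped as neighbours in that order. A stretch of 77 bases of its transcript, 3.6% of 2138 bases, is shared, in pieces of at least 50 bases, with transcripts of 63 other genes.

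Tle6 encodes a member of the Groucho-related family that binds the other core proteins. Control 2-cell embryos had 6.39, 5.85, 10.8 and 7.68 FPKM and KD 2-cell embryos 5.24, 6.66 and 4.88 FPKM, with overlap. Morulae had 1.68, 0.606, 2.15 and 1.93 FPKM in controls and 0.981, 0.493 and 1.43 FPKM after KD. In blastocysts, Tle6 was at 0.581, 1.72, 1.60 and 0.954 FPKM in controls and 0.504, 0.671, 0.697 and 0.326 FPKM after KD. The KD mean was below the control mean at each stage, by 1.37-fold, 1.64-fold and 2.21-fold, but control and KD libraries overlapped at all of them, and in blastocysts Tle6 was too low for the filter. It fell 4.83-fold from control 2-cell embryos to control morulae (log2 fold change −1.87, SE 0.20, adjusted p = 1.64e-08).

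Khdc3 encodes FILIA, a KH-domain protein linked to chromosome stability in cleaving embryos, and followed the opposite course. Its 2-cell levels were 8.36, 11.6, 5.19 and 6.02 FPKM in controls and 10.1, 9.14 and 6.34 FPKM after KD. Control morulae reached 323, 310, 204 and 173 FPKM and KD morulae 163, 152 and 155 FPKM, so the groups did not overlap, and 22.9% of the genes tested were lower in every KD library. In blastocysts, controls had 151, 244, 232 and 178 FPKM and KD libraries 199.9, 164, 312 and 310 FPKM, with wide overlap. Khdc3 rose 32.4-fold from control 2-cell embryos to control morulae (log2 fold change 4.67, SE 0.23, adjusted p = 3.02e-14) and 18.4-fold in KD embryos (3.94, SE 0.27, adjusted p = 1.06e-11). It did not pass the test between morula and blastocyst in either treatment (log2 fold change −0.28 in controls and 0.44 in KD, adjusted p = 0.359 and 0.216).

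The value of Khdc3 depends on how reads were divided with Gm20509, a protein-coding gene model on the same strand that shares 790 of the exonic bases of Khdc3. Gm20509 was listed at 53.5 to 66.1 FPKM in control 2-cell embryos and at 198 to 311 FPKM in control morulae. Khdc3 made up 8.85% to 14.9% of the summed FPKM of both genes in control 2-cell embryos, 46.7% to 51.6% in control morulae and 51.0% to 53.4% in control blastocysts. Counted as one gene, an alternative added after the data were seen, the pair rose 7.40-fold from control 2-cell embryos to morulae (log2 fold change 2.65, adjusted p = 7.62e-12). The direction of the rise held with both ways of counting, while its size differed by more than 4 times, and Gm20509 alone also rose (1.84, SE 0.17, adjusted p = 1.12e-09). The plot of both genes by library shows the change in share.

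**Figure D2:**
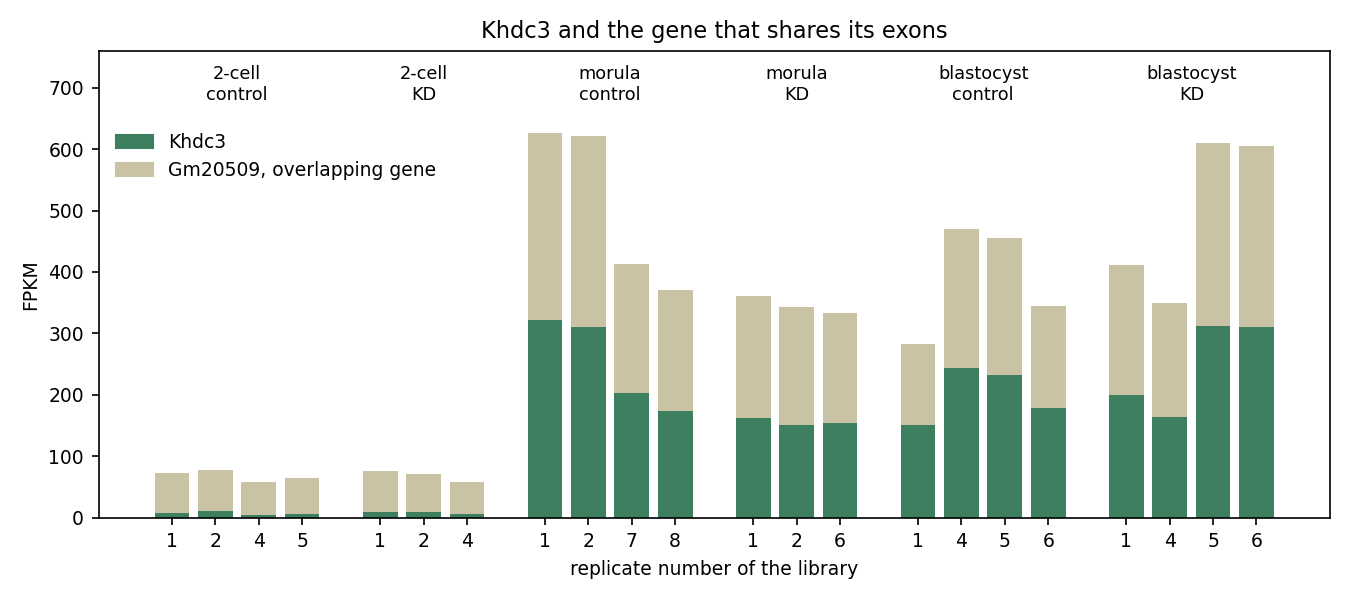
FPKM of Khdc3 (green) and of the overlapping gene Gm20509 (beige), stacked for each library, with libraries ordered by stage, treatment and replicate number. The stack is under 80 FPKM in every 2-cell library, mostly Gm20509, and between 284 and 625 FPKM in later stages, where the genes have similar levels.

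Padi6 encodes a peptidylarginine deiminase-like protein of the egg's cytoplasmic lattices. Control 2-cell embryos had 8.55, 9.38, 18.7 and 11.8 FPKM and KD 2-cell embryos 8.71, 9.15 and 7.92 FPKM. Morulae kept similar levels, with 10.5, 8.66, 10.0 and 9.48 FPKM in controls and 8.74, 10.2 and 7.76 FPKM after KD. In blastocysts the control libraries held 1.72, 2.42, 2.31 and 2.05 FPKM (2.12 ± 0.31, SD, n = 4) and the KD libraries 3.38, 3.43, 4.55 and 4.42 FPKM (3.95 ± 0.63, SD, n = 4). Every KD blastocyst library was above every control one, as for 14.6% of the genes tested, and the KD mean was 1.86-fold higher. Between morula and blastocyst Padi6 fell 4.55-fold in controls (log2 fold change −1.73, SE 0.15, adjusted p = 2.89e-09) and 2.25-fold in KD embryos (−1.13, SE 0.16, adjusted p = 1.18e-05). From the 2-cell stage to the morula its fall in controls was small (−0.41, SE 0.15, adjusted p = 0.0147), the ranges overlapped, and the call was lost without control 2-cell replicate 4 (−0.24, adjusted p = 0.088). That library was the highest of its group for 5 of the 8 genes: Ooep, Tle6, Padi6, Nlrp2 and Zbed3.

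Of the partners, Nlrp2 encodes another NLR protein and was lost from the transcriptome after the 2-cell stage. Its levels were 3.28, 4.01, 5.03 and 3.77 FPKM in control and 3.50, 3.58 and 2.86 FPKM in KD 2-cell embryos. All later libraries held between 0 and 0.112 FPKM, and it was listed at 0 in 3 of 4 control blastocyst libraries and 1 of 4 KD ones. Nlrp4f encodes a rodent NLR protein and fell 206-fold from the 2-cell stage to the morula in controls (log2 fold change −4.75, SE 0.20, adjusted p = 9.65e-16). Its levels in control 2-cell embryos were 22.6, 21.6, 35.6 and 38.2 FPKM, and in control morulae 0.239, 0.122, 0.0771 and 0.136 FPKM. Control blastocysts again had 2.66, 3.92, 6.56 and 3.64 FPKM, and KD blastocysts 2.26, 2.43, 4.13 and 5.36 FPKM. The rise from morula to blastocyst passed the test in controls (2.04, SE 0.20, adjusted p = 1.71e-08) and in KD embryos (1.56, SE 0.21, adjusted p = 7.37e-06). Nlrp4f shares stretches of 50 bases or more with 4 other genes, Nlrp4g and Nlrp4a among them, over 24.8% of its longest transcript, so its level is uncertain.

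Zbed3 encodes a zinc finger protein with a BED domain and was by far the most abundant member at the 2-cell stage. Control 2-cell embryos had 866, 789, 1250 and 683 FPKM and KD 2-cell embryos 725, 800.1 and 554 FPKM, which placed it 32nd to 69th among 55335 genes in these 7 libraries. Control morulae had 0.157, 1.07, 0.703 and 0.414 FPKM and KD morulae 0.906, 0.948 and 0.582 FPKM. The mean of controls was thus 1533-fold lower in morulae (log2 fold change −9.22, SE 0.18, adjusted p = 7.56e-21), and blastocyst libraries held at most 0.492 FPKM. Zbed3 likewise passed the filter of this fit only through the 2-cell libraries, so the fall was fixed in advance and the p-value is a description. A further difference between KD morulae and KD blastocysts passed the test (−0.58, SE 0.20, adjusted p = 0.0287), at levels under 1 FPKM and not in every setting.

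Counted over the stage steps, 7 of the 8 genes fell and 1 rose from the 2-cell stage to the morula in control embryos, where 41.3% of all 15697 genes tested fell and 39.0% rose. In KD embryos 6 fell, 1 rose and Padi6 did not pass the test (log2 fold change −0.09, adjusted p = 0.634), beside 40.5% falling and 36.6% rising among all genes. From morula to blastocyst, 2 rose (Ooep and Nlrp4f) and 1 fell (Padi6) in controls, against 24.5% rising and 20.6% falling among all genes. In KD embryos the same step had 2 rising (Ooep and Nlrp4f) and 2 falling (Padi6 and Zbed3), against 16.3% and 14% of all genes. With FPKM as deposited, the share of rising genes among the calls of this step was 66.7% in place of 53.9%. Nlrp5, Nlrp2 and Zbed3 passed the filter of this fit through the 2-cell libraries alone and so had to differ, and the counts are a description. The map of differences from control 2-cell embryos shows the spread of the courses, from −9.67 for Zbed3 to 4.38 for Khdc3 in control blastocysts on the log2 scale.

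**Figure D3:**
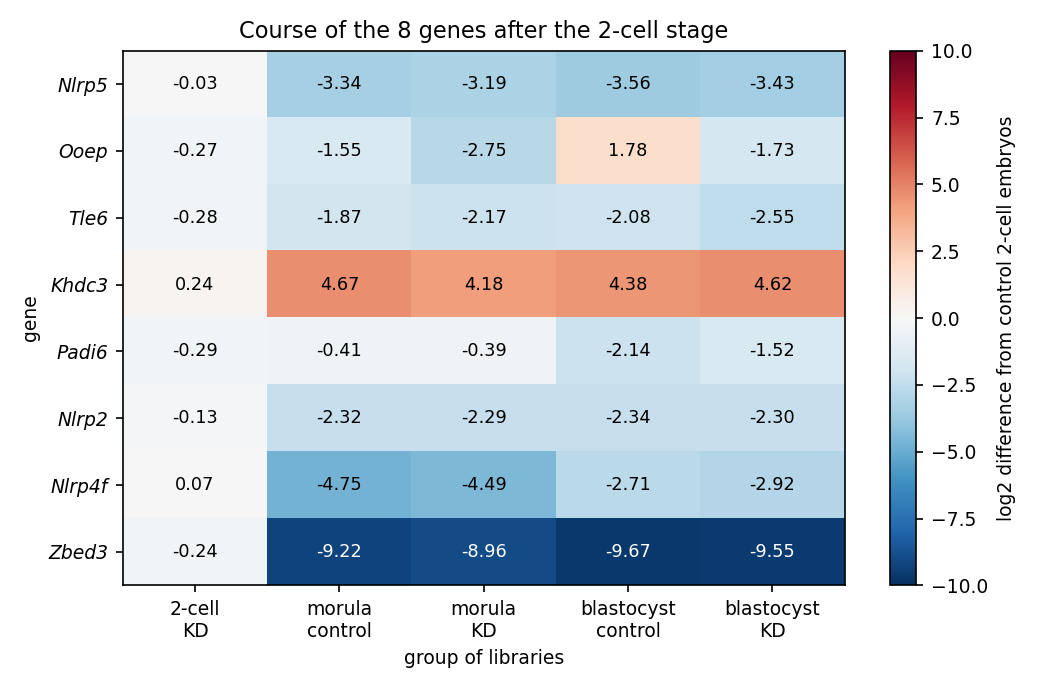
Mean difference in log2(scaled FPKM + 1) from control 2-cell embryos for each gene (rows) in each of the other 5 groups (columns), with blue for lower, red for higher and the value in each cell. Nlrp5, Tle6, Padi6, Nlrp2, Nlrp4f and Zbed3 are blue in all morula and blastocyst groups, Khdc3 is red, and Ooep is red only in control blastocysts (1.78).

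H2A.Z KD was compared with control at each stage to ask whether the genes depend on H2A.Z. Of the 4 members tested in blastocysts, Ooep fell and Padi6 rose after KD, where 36.5% of all genes tested were called. Of the 4 members tested in morulae, Ooep fell, where 13.3% of all genes tested were called. The call of Ooep in morulae depended on the filter on low values. At the 2-cell stage all 8 genes were tested and 0 passed, as did 0% of the 12160 genes tested by limma. At an unadjusted p under 0.05 there were 701 genes and 0 members, and with all 22 libraries in one limma fit 15 genes rose and 18 fell, again with 0 members. The log2 fold changes ran from −0.33 for Padi6 to 0.20 for Khdc3, with a median of −0.22 beside 0.0035 over all genes tested. The 95% CIs reached from −0.82 at the lowest (Padi6) to 0.81 at the highest (Khdc3), and changes of that size lie within the intervals. Within replicates 1 and 2, Padi6, Tle6 and Zbed3 differed by −0.011, −0.048 and −0.13. Within replicates 4 and 5, with 1 KD library, they differed by −0.68, −0.64 and −0.57. The same values were −0.29 and −0.24 for Ooep and −0.055 and −0.051 for Nlrp5.

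In morulae 4 of the 8 genes passed the filter, namely Ooep, Tle6, Khdc3 and Padi6, and 1 passed the test. Ooep fell after KD (log2 fold change −1.23, SE 0.22, 95% CI −1.71 to −0.75, adjusted p = 0.00765), where 9.04% of 10989 genes fell and 4.23% rose, or 2.53% with a fall of more than 1 on the log2 scale. Of all calls, 31.9% were rises, and 15.3% with FPKM as deposited. Ooep passed the filter through the control libraries alone, and without the filter the call was lost (−1.23, adjusted p = 0.0608 over 32900 genes). Since a pseudocount of 1 was added, the fitted change understates the ratio of the FPKM. The KD and control libraries of Khdc3 did not overlap either (22.9% of genes), but the difference did not pass (−0.51, SE 0.19, adjusted p = 0.0982). Its control libraries split by replicate number, with replicates 1 and 2 at 323 and 310 FPKM and replicates 7 and 8 at 204 and 173 FPKM. Within the low numbers the difference was −0.84 and within the high numbers −0.16, and with this range as a covariate the difference passed the test (−0.57, adjusted p = 0.0315). Summed with Gm20509 it was −0.39 (adjusted p = 0.16). For Ooep the same within-range values were −1.22 and −1.08. Tle6 (−0.31, SE 0.26, adjusted p = 0.445) and Padi6 (0.0011, SE 0.15, adjusted p = 0.997) did not pass.

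In blastocysts Ooep, Khdc3, Padi6 and Nlrp4f passed the filter. Ooep fell after KD (log2 fold change −3.52, SE 0.24, 95% CI −4.03 to −3.0, adjusted p = 1.49e-06), where 19.8% of 11828 genes fell and 7.69% fell by more than 1 on the log2 scale. Padi6 rose (0.66, SE 0.15, 95% CI 0.33 to 1.00, adjusted p = 0.00565), as did 16.7% of genes. The control and KD libraries of both genes did not overlap, where 20.0% of genes tested were lower and 14.6% higher in every KD library. Khdc3 (0.27, SE 0.20, 95% CI −0.17 to 0.71, adjusted p = 0.326) and Nlrp4f (−0.19, SE 0.24, 95% CI −0.72 to 0.33, adjusted p = 0.569) did not pass. Within replicate 1 and within the higher numbers the difference in Ooep was −3.64 and −3.48, and that in Padi6 0.65 and 0.67. In pools of whole embryos, fewer cells of a type and less RNA per cell cannot be told apart. The study reported that KD strongly reduced blastocyst formation but not development to the morula. How embryos were chosen for the KD blastocyst pools is not stated, so they may not match the controls in developmental progress.

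**Figure D4:**
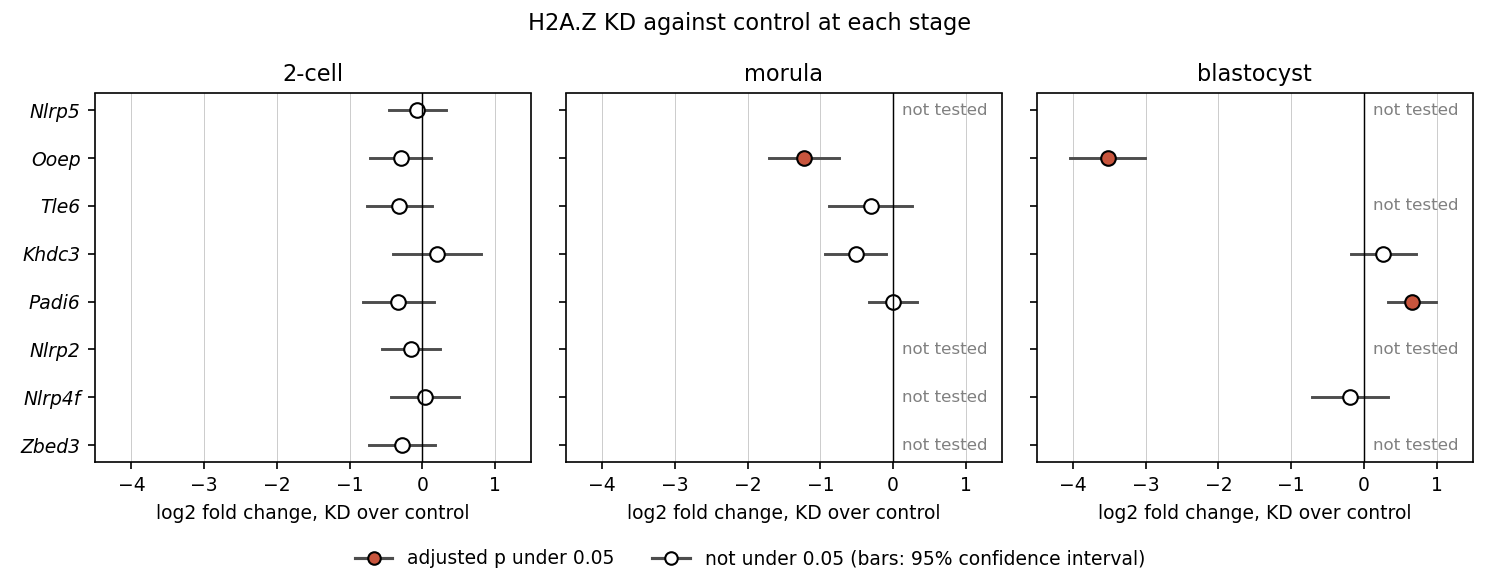
Log2 fold change of H2A.Z KD over control with its 95% confidence interval for each gene tested, in 3 panels by stage, with filled points where the adjusted p was under 0.05. The filled points are Ooep in morulae (−1.23) and blastocysts (−3.52) and Padi6 in blastocysts (0.66), and genes under the filter are marked as not tested.

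The difference between stages was tested itself over all 22 libraries. Between morula and blastocyst the fitted KD effect on Ooep became larger by 2.32 on the log2 scale (difference −2.32, SE 0.31, adjusted p = 6.70e-05). The pseudocount of 1 shrank the fitted effect more at the low morula levels. By FPKM means, control was 5.49-fold above KD in morulae and 15.9-fold in blastocysts, a smaller growth than the fitted difference. A called difference was found for 9.35% of 15697 genes, 43.5% of them positive (54.8% with FPKM as deposited). For Padi6 the difference was 0.60 (SE 0.22, adjusted p = 0.0901) and for Khdc3 0.72 (SE 0.35, adjusted p = 0.216), neither of which passed. Between the 2-cell stage and the morula 0 of 8 genes had a called difference, against 1.35% of all genes, with Ooep at −0.93 (SE 0.33, adjusted p = 0.16).

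Markers of other cell types were read beside these differences. The summed FPKM of 12 blastocyst lineage markers, which include keratins of the trophectoderm and factors of the inner cell mass, was 248.6 to 320.1 in control and 125 to 176 in KD morulae, and 1116 to 1615 in control and 731 to 1094 in KD blastocysts, so the KD and control sums did not overlap at the stages where Ooep fell. A few genes carried the sums: in blastocysts Krt18 had a mean of 799 FPKM in controls and 390 FPKM after KD and Krt8 343 and 239 FPKM, and in morulae Nanog had 106 and 20.7 FPKM. Other markers had higher means in KD than in control blastocysts, such as Nanog (161 against 132 FPKM) and Gata6 (19.0 against 10.6 FPKM), and the list median there was −0.07, beside 0.0047 over all genes. Of the 10 markers tested in blastocysts, Krt18 fell (log2 fold change −1.02, adjusted p = 0.00126) and Tfap2c rose (0.96, adjusted p = 0.00674), and of 8 tested in morulae Nanog fell (−2.23, adjusted p = 0.00647). The 6 markers of the 2-cell stage found in the table summed to 1.46 to 6.12 FPKM in control and 4.76 to 10.4 FPKM in KD morulae and to 0.291 to 1.03 FPKM in control and 3.16 to 14.4 FPKM in KD blastocysts, and the only one tested there, Zfp352, rose (1.56, adjusted p = 0.00157). The part of these differences in the results for Ooep and Padi6 was not tested. The 10 markers of cumulus and granulosa cells, which surround the egg, summed to 3.87 to 17.1 FPKM over all libraries, most of it Amhr2, the 1 marker that passed the filter. The other 9 reached at most 0.372 FPKM (Ptgs2), and Fshr was listed at 0 in all 22 libraries.

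Relatives of the members and other maternal genes were taken from lists by family. Among the 4 KHDC1 relatives, KH-domain genes related to Ooep and Khdc3, Khdc1c (log2 fold change −0.82, adjusted p = 0.0268) and Dppa5a (−0.78, adjusted p = 0.0246) fell in KD blastocysts, with 2 not passing, where 19.8% of all genes fell, and a list median of −0.58 beside 0.0047 over all genes. Dppa5a lies 7932 bases from Ooep on chromosome 9 and had the highest mean of its list, at 6827 FPKM in control and 3967 FPKM in KD blastocysts. In controls Dppa5a rose from the morula to the blastocyst (0.82, adjusted p = 0.00332), and its KD effect differed between these stages (−1.15, adjusted p = 0.0243), as for Ooep. Of the 10 coding genes within 100000 bases of Ooep, 7 were tested in blastocysts, where 1 (Dppa5a) fell and 0 rose, beside 19.8% and 16.7% of all genes. In morulae 7 were tested, of which Gsta2 (0.95, adjusted p = 0.0132), Omt2b (0.60, adjusted p = 0.0339) and Omt2a (1.01, adjusted p = 0.00439) rose and Mto1 fell (−0.79, adjusted p = 0.0289), beside 4.23% rising and 9.04% falling among all genes. Within the same distance of Tle6 and of Khdc3, 3 of 5 genes tested in blastocysts rose and 0 fell. The 1 neighbour tested there rose for Padi6 and for Zbed3 and did not pass for Nlrp4f. Nlrp5 and Nlrp2 had 0 tested neighbours in blastocysts.

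Of the 10 NLRP relatives, 9 were tested over development and 8 fell from the 2-cell stage to the morula in controls, beside 41.3% of all genes. Of these 8, 7 reached 1 FPKM in fewer than 3 morula and blastocyst libraries, passed the filter through the 2-cell libraries and so had to fall. The highest of them, Nlrp9c, stood at 318 FPKM in control 2-cell embryos and 0.611 FPKM in control morulae. The exception was Nlrp4c, which rose (log2 fold change 1.01, adjusted p = 0.00158) and rose again to 17.9 FPKM in control blastocysts (1.78, adjusted p = 8.91e-06). In neither morulae nor blastocysts did Nlrp4c, the 1 relative tested there, pass the KD comparison (−0.05 and 0.10, adjusted p = 0.916 and 0.775). Of 24 other maternal-effect and oocyte genes, 23 were tested over development, 21 fell and 1 (Trim28) rose from the 2-cell stage to the morula in controls, and 13 of the 21 likewise passed the filter only with the 2-cell libraries, so that the count is a description. After KD 0 of 8 tested in morulae and 1 of 6 tested in blastocysts passed, the latter being Trim28, a maternal-effect corepressor that rose (0.60, adjusted p = 0.0309), as did 16.7% of all genes. The 14-3-3 genes encode adaptor proteins that bind phosphorylated partners, and 1 of the 7, Sfn, rose in KD blastocysts (0.82, adjusted p = 0.0253), where 16.7% of all genes rose. The 4 PADI relatives stayed under 1 FPKM in sum (0.0716 to 0.705 FPKM), so that Padi6 was the only gene of the family above the filter. Of 4 TLE relatives in the table, 1 was tested in morulae and blastocysts, Tle4, and did not pass the KD comparison at either (0.32 and 0.0059, adjusted p = 0.208 and 0.984).

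The genes whose course was most like the mean course of the 8 members were sought among 15697 genes by the mean absolute log2 difference over the 5 groups other than control 2-cell embryos. The 5 nearest were Sclt1, Btbd2, Zfp943, Atl3 and Sbf2, at distances of 0.065 to 0.095. Each fell from between 4.51 and 9.75 FPKM on average in control 2-cell embryos to 1.30 FPKM or less in control morulae. Among the members, Nlrp2 was 28th and Tle6 248th in that order, and Khdc3 and Zbed3 were 15575th and 15593rd of 15697, so that the mean course describes only some of the genes. Taken singly, the gene nearest to Zbed3 was Tcl1b2 (0.32), followed by Tcl1b3 and Tcl1b1, and the nearest to Ooep was Srek1ip1, at a distance of 0.40.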

How the data were processed

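Per the labels, RNA-seq libraries were made from 22 pools of embryos. The authors aligned reads to mm10 with STAR, quantified genes with StringTie 2.1.4 and deposited FPKM, which correct for gene length and library total; read counts were not used here. How reads of overlapping genes were divided could change Khdc3. The 8 members and all gene lists were chosen with earlier results of these data known. FPKM were divided by a median-of-ratios factor per library (0.908 to 1.19 within stages) and log2 values were taken after adding a pseudocount of 1. Genes reaching 1 FPKM in 3 or more libraries of a fit were tested with limma 3.58.1 (R 4.3.3, eBayes with trend), with KD against control fitted within each stage, and with stage steps and differences between stages fitted over 6 groups. P-values were two-sided, adjusted by the Benjamini-Hochberg method over all genes tested, and called under 0.05. The fits were tried on simulated data with normal noise and changes planted in genes above the filter. Genes near the filter and smaller changes were not covered by that trial. Named genes were the 8 members, H2afz, the 5 genes nearest in course, and from each list those called with the largest change and the highest in controls; Gm20509 and the neighbours of Ooep were added after the values were seen. Alternatives were another pseudocount, no filter, other scalings, the replicate number or its range in the fit, each library left out, other groups in the fit, and Khdc3 summed with Gm20509. Annotation was GENCODE vM21 and shared stretches were sought in its transcripts (50 bases or longer). Replicate numbers did not mark a shared origin in the labels.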

Additional observations from a re-analysis of the deposited data

Results flagged for a closer look

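In 32 groups of 4 libraries, the 8 members were searched for a library that stood apart from the other 3, and 5 were found. The cutoff marks about 1 in 20 for independent, normally spread values. FPKM of genes from the same libraries are not such values, so the 5 are a description. Nlrp5 was at 8.89 FPKM in 1 control 2-cell library, where the others held 12.1 to 12.3 FPKM, and at 0.130 FPKM in 1 control blastocyst library, where the others held 0.0430 to 0.0552 FPKM. Ooep was at 12.0 FPKM in control 2-cell replicate 4, against 7.48 to 8.22 FPKM in the others. In control blastocysts, Nlrp2 was at 0.0217 FPKM in replicate 6 and listed at 0 in the others, where any value above 0 would be marked. Zbed3 was at 0.361 FPKM in replicate 1 of the same group, against 0.0168 to 0.0403 FPKM. The fitted KD effect on Ooep differed between morula and blastocyst by −2.32 on the log2 scale, tested as an interaction. The pseudocount shrank the morula effect more, so the ratio of FPKM grew by less.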

How the results depend on the processing

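The fall of Ooep and the rise of Padi6 in KD blastocysts and the Ooep difference between morula and blastocyst held in all settings tried for them. At the 2-cell stage 0 members were called in every setting. The main fit called 0 of 12160 genes there and did not call H2afz, so this 0 tells little about the members. In KD morulae the number of called members was 1 and became 0 without the filter on low values, where Ooep had an adjusted p of 0.0608 with 32900 genes tested, and 2 when the low or high range of the numbers was a covariate. From morula to blastocyst in controls it was 3 and became 5 with a pseudocount of 0.1, by which Nlrp5 and Zbed3 passed. The interaction between morula and blastocyst had between 1 and 2 called members over the single libraries left out, with Padi6 added without control 2-cell replicate 4 (0.60, adjusted p = 0.0333). Deviations of same-numbered libraries correlated at 0.0146 to 0.214 in 2-cell embryos, 0.0944 to 0.181 in morulae and −0.111 to 0.354 in blastocysts. Other pairs ran from −0.237 to 0.205, −0.278 to 0.347 and −0.381 to 0.401 in these stages, and the ranges overlapped. With 3, 2 and 4 same-numbered pairs, these values cannot tell whether single numbers pair the libraries. In morulae every control and KD pair within the low or the high range was positive (0.0944 to 0.347). Every pair across ranges was negative (−0.278 to −0.0945). With a replicate block the morula count was 2 (Khdc3 −0.84, adjusted p = 0.00222). Only replicates 1 and 2 occur in both morula treatments, so that difference rests on them. With the same block, Nlrp2 from morula to blastocyst after KD was 0.00519 and the Tle6 interaction of 2-cell and morula 0.20. Signs turned only for differences near 0 that did not pass: with FPKM as deposited, Nlrp4f at the 2-cell stage (−0.0297), Padi6 in morulae (−0.11) and from 2-cell to morula after KD (0.0392), and Nlrp2 from morula to blastocyst after KD (0.000211); with quantile normalization, Padi6 from 2-cell to morula after KD (0.0569) and the Tle6 interaction (0.0511). Over single libraries left out, Nlrp4f at the 2-cell stage ran from −0.0922 to 0.166, Nlrp5 there from −0.154 to 0.0431, Padi6 in morulae from −0.0930 to 0.0587, Nlrp2 after KD from −0.0338 to 0.00719 and the Tle6 interaction from −0.212 to 0.176. The call of Zbed3 from morula to blastocyst was gained in controls (adjusted p 0.0047 to 0.048) and lost after KD (0.0536 to 0.156) in several settings, and Padi6 from 2-cell to morula in controls was lost in 4. Quantile normalization moved the median of all genes from 2-cell to morula to 0.12 in controls and 0.11 after KD, from −0.015 and −0.037, so that changes near this size depend on the scaling. FPKM carry no depth, and members under 1 FPKM were not resolved.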
